A study of Mus musculus with 6 samples.

Results

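The 10 genes described here move iron into cells, store it and release it again: Trf, Tfrc, Slc11a2, Slc11a1, Hmox1, Fth1, Ftl1, Slc40a1, Cp and Heph. They were taken by name, as the lines of the deposited table that carry these gene symbols. All 10 were found among 33924 gene symbols, and all 10 were among the 18636 genes with an adjusted p-value, which are called tested.

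The study asked how aging changes gene expression in RPE/choroid, the retinal pigment epithelium (RPE), a single pigmented layer behind the photoreceptors, together with the vascular layer beneath it. Tissue was scraped from the eyecups of wild-type C57BL/6J mice, with 2 eyes per sample, and total RNA was sequenced after removal of ribosomal RNA. There were 3 young libraries and 3 aged libraries. The labels gave 1 to 2 months for the young mice, and for the aged mice 20 to 24 months in the titles and 22 to 24 months in the time label. The methods of the study put the young mice at a somewhat older age. Every mouse was labelled male, whereas the methods name both sexes. No treatment or allele separated the groups. The deposited table holds 1 comparison of the groups and no value per library, so the level in each mouse, its spread and the number of reads in each library are unknown here. The 1338 genes of lowest nonzero baseMean, under 0.25, all lay on 6 levels, as 1 count in 1 of the 6 libraries gives. By these levels the scaling of the libraries spanned 1.35-fold. Each error below is the standard error (SE) that the authors' DESeq2 fit gave to a log2 fold change, with n = 3 libraries per group. The table does not state which group its sign favours. The sign was read from the study's account of which group had more higher genes, and every direction below depends on that reading.

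Iron travels in plasma bound to transferrin, the product of Trf, and enters cells when the transferrin receptor, the product of Tfrc, carries it into endosomes. From there DMT1, encoded by Slc11a2, moves ferrous iron into the cytosol. Macrophages also recover iron from engulfed cells: heme oxygenase 1, encoded by Hmox1, opens the heme ring and frees the metal, and NRAMP1, encoded by Slc11a1, pumps metal ions out of the phagosome. Iron that is not used is held inside ferritin, a shell of heavy chains (Fth1), which oxidize the metal, and light chains (Ftl1), which help it to mineralize. Ferroportin, encoded by Slc40a1, is the exporter of ferrous iron, and the copper oxidases ceruloplasmin (Cp) and hephaestin (Heph) oxidize the exported metal so that transferrin can bind it. The RPE hands iron between the choroidal blood and the photoreceptors, which need it for their metabolism.

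Several of these mRNAs carry iron-responsive elements, short stem-loops bound by the iron regulatory proteins when iron is scarce. Before the start codon, binding holds back translation, whereas after the stop codon of Tfrc it slows decay of the mRNA. A search of GENCODE M21 transcripts (GRCm38) for a loop of these letters, CAGTGN, closed by 5 stem pairs and with an unpaired C before the stem, found 1 match upstream of the start codon in Fth1, Ftl1 and Slc40a1, and 4 downstream of the stop codon in Tfrc. They are shown because this element is the best known control that these 4 genes have in common. Only the transcript strand was searched, and the last loop base was A, C or T. Each line gives 30 bases 5′ to 3′ on the transcript, with the loop in capitals.
Fth1, before the start codon, chr19:9982732-9982761, plus strand: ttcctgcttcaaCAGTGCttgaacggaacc
Ftl1, before the start codon, chr7:45459778-45459807, minus strand: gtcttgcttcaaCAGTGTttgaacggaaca
Slc40a1, before the start codon, chr1:45925464-45925493, minus strand: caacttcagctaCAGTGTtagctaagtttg
Tfrc, after the stop codon, chr16:32631219-32631248, plus strand: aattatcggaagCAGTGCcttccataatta
Tfrc, after the stop codon, chr16:32631598-32631627, plus strand: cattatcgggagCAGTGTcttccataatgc
Tfrc, after the stop codon, chr16:32631663-32631692, plus strand: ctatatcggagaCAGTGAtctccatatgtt
Tfrc, after the stop codon, chr16:32631710-32631739, plus strand: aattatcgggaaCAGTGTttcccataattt

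The stem-loop ends 108 bases before the coding sequence in Fth1, 146 bases before it in Ftl1 and 200 bases before it in Slc40a1. In Tfrc the matches begin between 885 and 1376 bases after the coding sequence. Of 21877 protein-coding genes, 23 (0.105%) had a match before the start codon and 100 (0.457%) had one after the stop codon. No match to these letters was found in the untranslated regions of the other 6 members, which says only that this pattern is not in those transcripts.

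In aged RPE/choroid, 8 of the 10 genes were higher, 1 was lower and 1 did not pass the test, by the authors' DESeq2 Wald test with an adjusted p-value under 0.05. Both ferritin chains rose, Fth1 by 6.45-fold and Ftl1 by 2.32-fold. Slc11a1 rose 6.12-fold, Hmox1 2.16-fold, Trf 1.99-fold and the exporter Slc40a1 1.79-fold. Slc11a2 and Cp rose by smaller amounts, Heph fell, and Tfrc was -0.01 (SE 0.11) on the log2 scale. Over all genes tested, 21.2% passed the same test, 11.3% higher and 9.92% lower in aged mice. These are 2100 higher and 1849 lower genes, and the balance turned to 1650 higher and 2289 lower on centring by genes with a baseMean of at least 100, which left 6 of the 10 members higher and 1 lower. Among the 9523 genes tested with a baseMean of at least 300, a level that all 10 members reach, 23% passed. BaseMean is the mean normalized count over the 6 libraries. The 10 genes had a median change of 0.91 on the log2 scale, beside -0.01 over all genes tested and 0.09 over those with a baseMean of at least 300. A rise of at least 1 on the log2 scale was seen in 4 of the 10 genes and in 690 (3.70%) of the genes tested. These counts describe the list, and no test was made of the list itself.

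**Figure D1:**
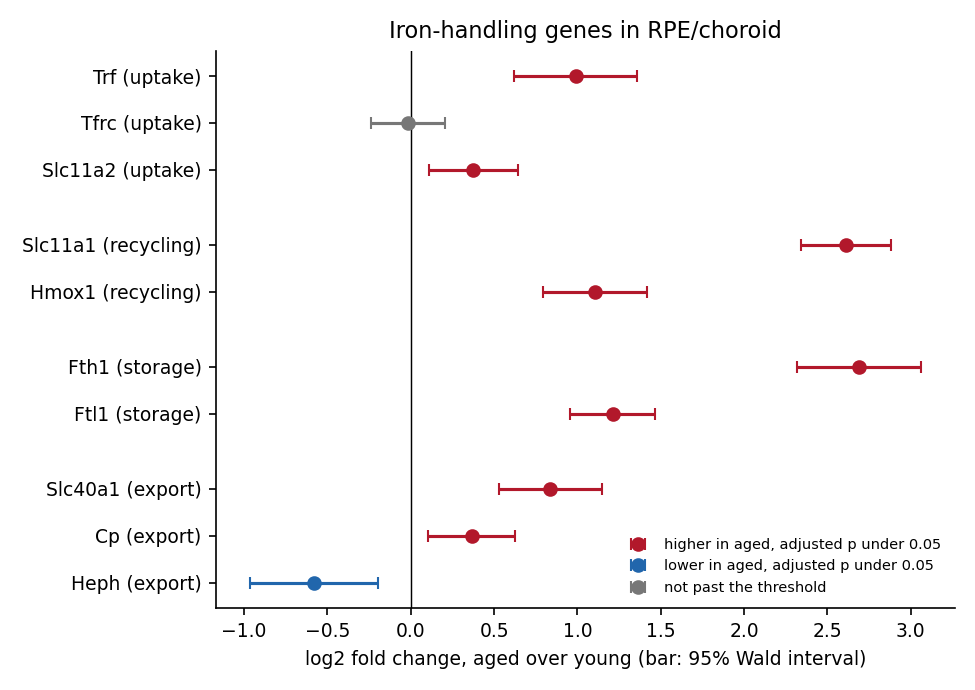
Log2 fold change (x axis, aged over young) of each of the 10 iron-handling genes (y axis, grouped by role), with bars for the 95% Wald interval and n = 3 libraries per group. Fth1 at 2.69 and Slc11a1 at 2.61 lie farthest to the right, Tfrc lies at 0, and Heph alone lies to the left with an interval that does not reach 0.

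The tissue label was checked against markers of RPE cells, and these data also hold markers of other cell types that move with age. None of the 10 RPE markers was at 0. Of the 9 tested, 3 were higher in aged mice, with a median log2 fold change of 0.34. Their summed level went from 285111 normalized counts in young to 349971 in aged mice. Ttr, the thyroxine and retinol carrier, was 0.08 (SE 0.18) and Rgr, an opsin of the RPE, was 0.63 (SE 0.18) on the log2 scale. Of 13 macrophage markers tested, 11 were higher and none lower, with a median log2 fold change of 1.92. The summed level of all 14 macrophage markers, none of them at 0, was 6.06-fold higher in aged mice, 18591 against 112691 normalized counts. Much of that sum was Lyz2, macrophage lysozyme, which has a fold change but no p-value in the table and went from 4274 to 72867 normalized counts. Without Lyz2, a step taken after its value was seen, the sum was 2.78-fold higher, 14317 against 39824 normalized counts. Csf1r, the receptor that macrophages need for survival, differed far less, with 0.37 (SE 0.13, DESeq2 adjusted p = 0.0276). In a bulk sample, more cells of a type and more RNA per cell cannot be told apart. The part of macrophages in the changes below was not tested.

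**Figure D2:**
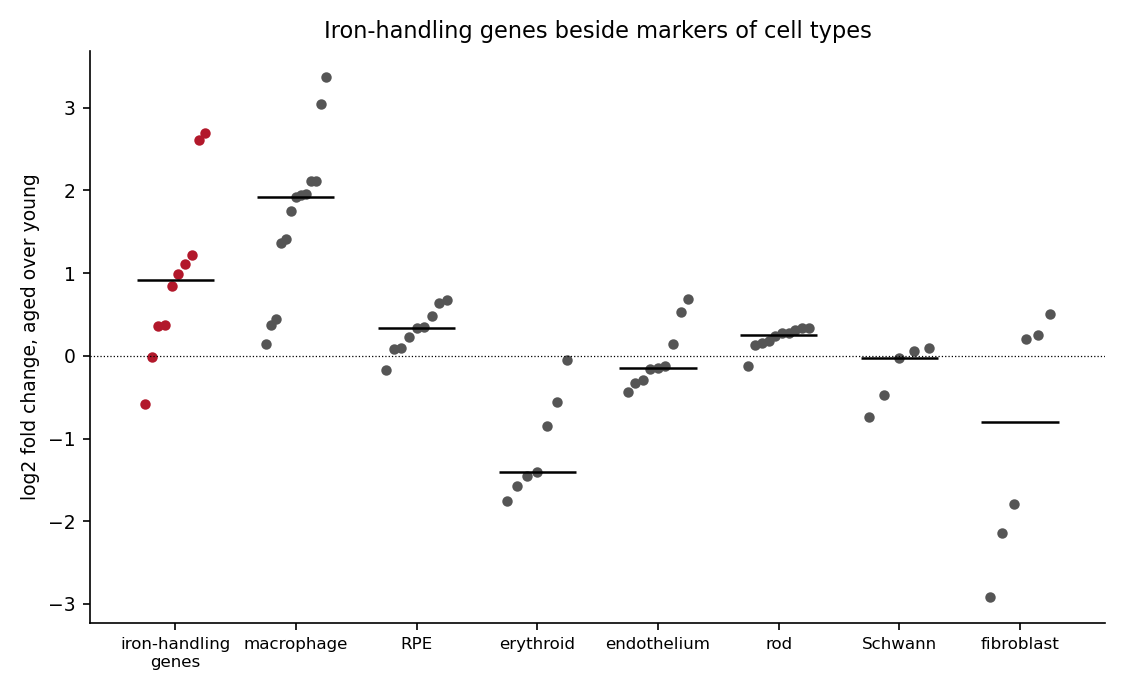
Log2 fold change (y axis, aged over young) of the iron-handling genes and of the tested genes of 7 marker lists (x axis), 1 point per gene and a line at the median of each list. The medians are 0.91 for the iron-handling genes, 1.92 for macrophage markers, 0.34 for RPE markers and -1.40 for erythroid markers.

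Erythroid markers and collagens were lower in aged mice. Of 7 erythroid markers found in the table, 5 were lower and none higher, with a median log2 fold change of -1.40. None was at 0, and their summed level went from 6066 to 2074 normalized counts. The globin genes Hba-a1 and Hba-a2 were -1.57 (SE 0.18) and -1.76 (SE 0.19) on the log2 scale. The beta globin lines of the table, Hbb-b1 and Hbb-b2, are not in that sum and were looked at afterwards: Hbb-b1 went from 20863 to 10347 normalized counts (-1.01, SE 0.21) and Hbb-b2 from 3246 to 1127 (-1.53, SE 0.21). Of 6 fibroblast markers, 3 were lower and 1 was higher, and the summed level went from 288513 to 119614 normalized counts. The 3 lower genes were collagens, Col1a1 at -2.91 (SE 0.17), Col1a2 at -1.80 (SE 0.15) and Col3a1 at -2.14 (SE 0.13). The others were positive: the matrix proteoglycans Dcn, which was higher at 0.51 (SE 0.13), and Lum at 0.26 (SE 0.14), and the growth factor receptor Pdgfra at 0.21 (SE 0.14). Col3a1, Dcn, Lum and Pdgfra were named after their values were seen. None of the 10 rod photoreceptor markers passed the DESeq2 test, and 0 had an unadjusted p-value under 0.05, with a median of 0.25, a summed level of 103910 in young and 124340 in aged mice, and wide errors: Sag, the rod arrestin, was 0.16 (SE 0.39). Of 9 endothelial markers tested, 1 was higher and 1 lower, with a median of -0.14 and summed levels of 24944 and 26213. Kdr, a receptor for vascular growth factor, was at 0.14 (SE 0.16) and Vwf, the von Willebrand factor, at 0.69 (SE 0.21). None of 5 Schwann cell and myelin markers tested passed the DESeq2 test, although 2 had an unadjusted p-value under 0.05, with summed levels of 6346 and 6224 and a median of -0.02. Pmp22, a myelin protein, was at -0.02 (SE 0.14). No gene of these lists that is in the table was at 0, and their part in the iron results was not tested.

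Among the uptake genes, transferrin rose while its receptor did not pass the test. Trf had the third largest baseMean of the table, 174234 normalized counts, which is 0.908% of the sum over all genes. Its group mean went from 116707 normalized counts in young to 231761 in aged mice, a log2 fold change of 0.99 (SE 0.19, 95% interval 0.62 to 1.36, DESeq2 adjusted p = 3.46e-06). Group means were worked out here from baseMean and the fold change, and are not averages of observed libraries. Trf (chr9:103204001-103230444, minus strand) shares much of its sequence with another annotated gene: 2050 of its 3384 different 31-base words also occur in Gm20425, which has no line of its own in the table. How reads that fit both were divided is not given in the sources used here.

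Tfrc (chr16:32608920-32632794, plus strand), whose 4 stem-loops are printed above, stood at 3376 normalized counts in young and 3343 in aged mice. Its log2 fold change was -0.01 (SE 0.11, 95% interval -0.24 to 0.21, DESeq2 adjusted p = 0.951). The interval of Tfrc excludes changes of the size seen in Trf. The log2 fold change of Trf exceeded that of Tfrc by 1.00, with an SE of at most 0.30 and a 95% interval of 0.41 to 1.59. That bound adds the SEs of both genes, so it holds however strongly their errors are correlated. Per kilobase of transcript, the mean of Trf was 65.8 times that of Tfrc in young mice and 132 times in aged mice. Values per kilobase assume that normalized counts still grow with transcript length, which the methods do not settle, since they speak of TPM values turned into normalized counts. The change of such a ratio between groups does not depend on it.

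Slc11a2 (chr15:100387898-100425072, minus strand) rose 1.30-fold, from 1039 to 1349 normalized counts. Its log2 fold change was 0.38 (SE 0.14, 95% interval 0.11 to 0.64, DESeq2 adjusted p = 0.0314). The call did not hold after centring on genes with a baseMean of at least 100, which gave 0.31 and an adjusted p of 0.0860. It also misses an adjusted p threshold of 0.01.

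**Figure D3:**
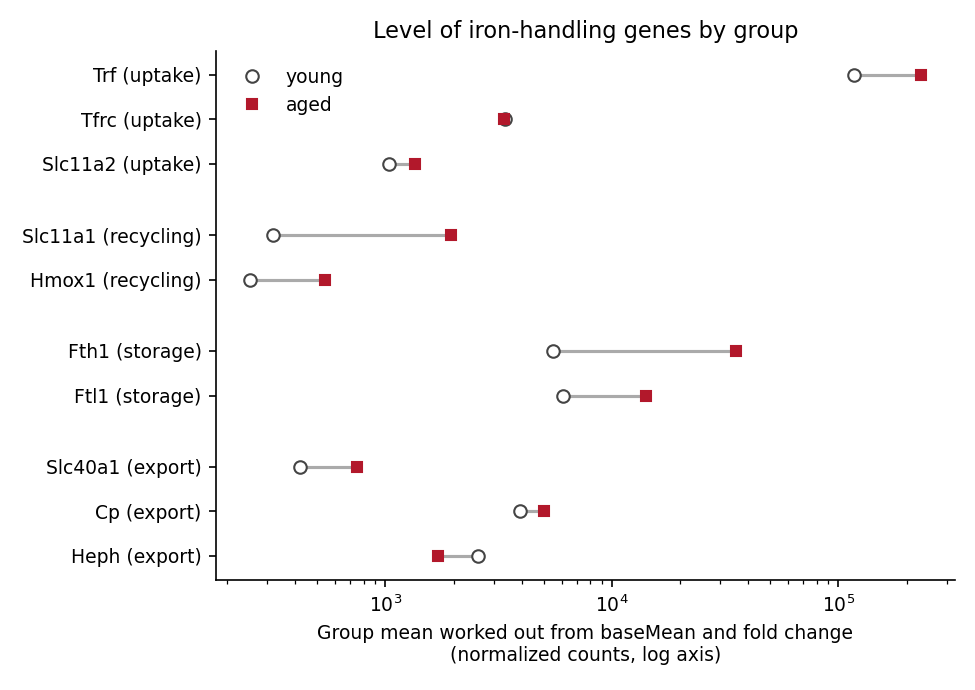
Mean normalized count (x axis, log scale) of each iron-handling gene in young and aged mice, worked out from the deposited baseMean and fold change. No error is drawn, since the table holds no value per library. Trf is the highest in both groups (116707 and 231761 normalized counts), and Fth1 goes from just below Ftl1 to above it.

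The recycling genes both rose. Slc11a1 (chr1:74375195-74386062, plus strand), the phagosomal metal pump of macrophages, went from 319.5 to 1956 normalized counts. Its log2 fold change was 2.61 (SE 0.14, 95% interval 2.34 to 2.89, DESeq2 adjusted p = 6.27e-77). It had the 90th largest rise and the 23rd smallest p-value of the genes tested. Its close relative Slc11a2, which most cells use, rose far less: the log2 fold changes differed by 2.24 (SE at most 0.27, 95% interval 1.70 to 2.78). Per kilobase, Slc11a1 stood at 0.402 times Slc11a2 in young mice and at 1.90 times in aged mice. Slc11a1 is a gene of macrophages, whose tested markers ranged from 0.15 to 3.37 on the log2 scale and whose summed level was 6.06-fold higher with Lyz2 and 2.78-fold higher without it.

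Hmox1 (chr8:75093621-75100589, plus strand), the inducible heme oxygenase, had the lowest baseMean of the 10 genes, 397 normalized counts. It went from 252 to 542 normalized counts, a log2 fold change of 1.11 (SE 0.16, 95% interval 0.80 to 1.42, DESeq2 adjusted p = 1.73e-10). It rose while the erythroid markers given above, which include the heme-carrying globins, were lower.

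The storage genes showed the largest rise of the 10 in Fth1. Fth1 (chr19:9980598-9985098, plus strand) went from 5464 to 35250 normalized counts, and its baseMean was the 63rd of the table. Its log2 fold change was 2.69 (SE 0.19, 95% interval 2.32 to 3.06, DESeq2 adjusted p = 1.27e-42), the 83rd largest rise of the genes tested. Ftl1 (chr7:45457944-45459884, minus strand) went from 6091 to 14124 normalized counts, with a log2 fold change of 1.21 (SE 0.13, 95% interval 0.96 to 1.47, DESeq2 adjusted p = 1.07e-18). The heavy chain thus rose more than the light chain. The difference was 1.48 on the log2 scale, with an SE of at most 0.32 and a 95% interval of 0.85 to 2.11. Per kilobase, the ratio of heavy to light chain mRNA was 0.935 in young and 2.60 in aged mice.

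Ferritin genes have many copies, and this bears on both values. Of the 1389 different 31-base words of Ftl1, 756 also occur in Ftl1-ps1, which has no line in the table, and only a share of 0.423 of its words was found in no other gene. Fth1 was more distinct, with a share of 0.968, and shared 102 words with Gm6977. Gm6977, named for this shared sequence and not for its value, had a baseMean of 140 and changed by 2.10 on the log2 scale (SE 0.28), so it was far below Fth1 in level and moved the same way. Of the other copies looked up by name, Fth-ps2 and Ftl2 had a line, with baseMeans of 11.3 and 8.51. Ftl1 shared words with 30 genes in all, and not all of these were looked up. Fth-ps2 went the other way, at -1.18 (SE 0.45, DESeq2 adjusted p = 0.0433), and Ftl2 was at 0.56 (SE 0.45) and did not pass. The counting of shared reads makes the level of Ftl1, and with it the heavy to light ratio, less certain than that of Fth1.

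**Figure D4:**
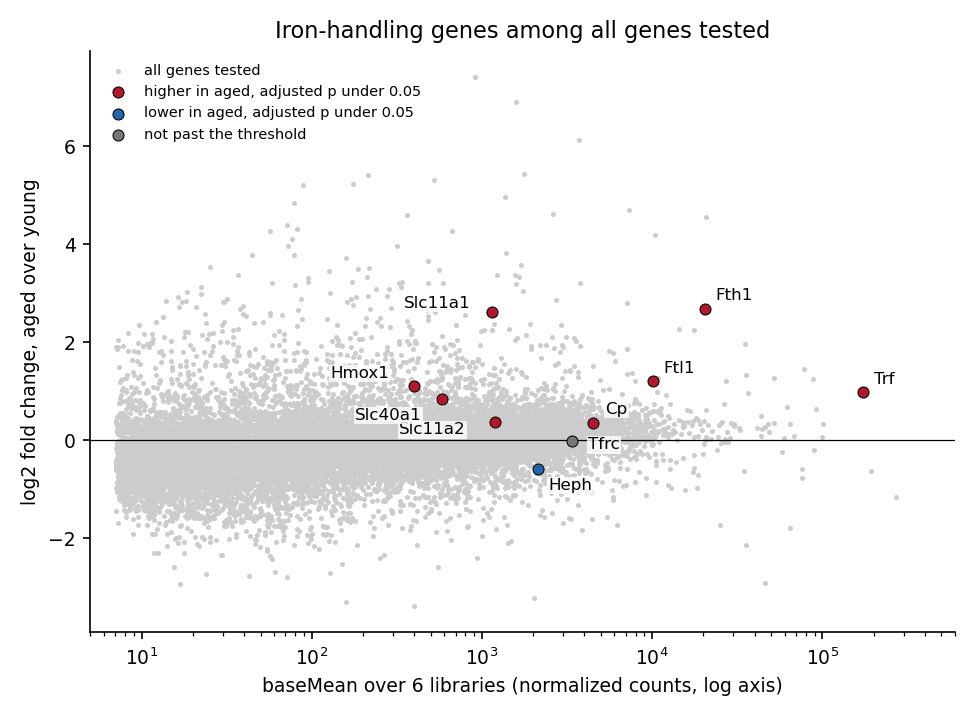
Log2 fold change (y axis, aged over young) against baseMean in normalized counts (log x axis) for all 18636 genes tested, in grey, with the 10 iron-handling genes in color. Fth1, Ftl1 and Trf lie at high baseMean above most genes of like level, and Slc11a1 lies above most genes near a baseMean of 1138.

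The export genes did not move together. Slc40a1 (chr1:45908068-45926523, minus strand), the only known iron exporter of mammalian cells, rose from 420 to 752 normalized counts, a log2 fold change of 0.84 (SE 0.16, 95% interval 0.53 to 1.15, DESeq2 adjusted p = 2.55e-06). Cp (chr3:19957054-20009145, plus strand) rose 1.29-fold, from 3907 to 5031 normalized counts, with 0.36 (SE 0.13, 95% interval 0.10 to 0.63, DESeq2 adjusted p = 0.0348). Heph (chrX:96455359-96574485, plus strand), the membrane-bound oxidase, fell to 0.668 of its young level, from 2560 to 1710 normalized counts. Its log2 fold change was -0.58 (SE 0.20, 95% interval -0.97 to -0.20, DESeq2 adjusted p = 0.0190), the widest error of the 10 genes. The calls of Cp and Heph both miss an adjusted p threshold of 0.01. That of Cp was also lost on centring by genes with a baseMean of at least 100, which gave 0.30 and an adjusted p of 0.0947.

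The oxidases moved apart. The log2 fold change of Cp exceeded that of Heph by 0.95 (SE at most 0.33, 95% interval 0.30 to 1.59), and the ratio of Cp to Heph per kilobase went from 1.80 in young to 3.46 in aged mice. Against the exporter Slc40a1, the ferritin heavy chain Fth1 rose more, by 1.85 (SE at most 0.35, 95% interval 1.17 to 2.53), a pair added after the values were seen. For the light chain Ftl1 the difference from Slc40a1 was 0.38, with a 95% interval of -0.19 to 0.94 that includes 0. Cp and Slc40a1 differed by -0.47, with a 95% interval of -1.05 to 0.10. In all, 7 pairs were compared, and intervals are given without p-values and without adjustment for the number of pairs.

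The stem-loop genes did not share 1 direction. With the loop before the start codon, Fth1, Ftl1 and Slc40a1 were all higher in aged mice, and with loops after the stop codon Tfrc did not pass the test. Of the 23 genes with a match before the start codon, 20 were tested: 7 were higher, 3 lower and 10 did not pass, with a median log2 fold change of 0.13. Without the members these were 17 genes, 4 higher and 3 lower, or 41.2% called, beside 21.2% of all genes tested. The difference from that share was not tested. Among them is Alas2, the first enzyme of heme synthesis in red cells, named because its iron-responsive element is well known. It was at -1.40 (SE 0.19, DESeq2 adjusted p = 2.84e-11). Alas2 is also 1 of the erythroid markers.

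A wider list of 67 genes of iron and heme handling gives the setting of the 10 genes. Of 61 tested, 11 were higher, 5 lower and 45 did not pass, which is 26.2% called beside the 21.2% of all genes tested. Their median change was 0.07 on the log2 scale, beside the 0.91 of the 10 genes. Ftmt, mitochondrial ferritin, was listed at 0. Bmp6 had no p-value, and Timd2, Hamp, Hamp2 and Hephl1 had no adjusted p-value.

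The genes of heme and hemoglobin handling had 7 calls among 12 tested, 5 higher and 2 lower, or 58.3% beside 21.2% of all genes tested. The difference between these shares was not tested. Hp, haptoglobin, which binds free hemoglobin in plasma, went from 35.0 to 121 normalized counts (log2 fold change 1.79, SE 0.27, DESeq2 adjusted p = 6.08e-10). Cd163, the macrophage receptor for that complex, went the other way, from 445 to 88.0 normalized counts (-2.34, SE 0.24, DESeq2 adjusted p = 4.7e-20). This fall stood beside the rise of 11 macrophage markers. Lrp1, which takes up heme bound to hemopexin among many ligands, rose by 0.96 (SE 0.16) from 24939 to 48485 normalized counts. The biliverdin reductases Blvra and Blvrb, which act on the product of heme oxygenase, rose by 0.83 (SE 0.17) and 0.84 (SE 0.17), beside the 1.11 of Hmox1. The heme exporter Flvcr1 rose by 0.80 (SE 0.17). Abcg2, a transporter that also exports porphyrins, was lower, at -0.36 (SE 0.12, DESeq2 adjusted p = 0.0233). The lysosomal heme carrier Slc48a1 was at 0.04 (SE 0.13) and Flvcr2 at -0.08 (SE 0.15), and neither passed.

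Of 15 other uptake genes tested, 1 was higher and 1 lower, or 13.3% beside 21.2% of all genes tested, a difference that was not tested. Lcn2, lipocalin 2, which captures iron-loaded siderophores, rose from 11.3 to 40.3 normalized counts (1.83, SE 0.38, DESeq2 adjusted p = 3.07e-05). Cybrd1, a ferric reductase that prepares iron for Slc11a2, fell from 238 to 94.7 normalized counts (-1.33, SE 0.19, DESeq2 adjusted p = 1.79e-10). The endocytic receptor Lrp2 was at 0.07 (SE 0.13) and the ferritin receptor Scara5 at -0.33 (SE 0.15, DESeq2 adjusted p = 0.0857).

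The genes that load and empty ferritin had changes of 0.10 to 0.65 on the log2 scale, beside the 2.69 of Fth1. Of 5 tested, only Bola2 (20.0% of them, beside 21.2% of all genes tested), which works with Glrx3 in handing on iron-sulfur clusters, was higher (0.65, SE 0.16, DESeq2 adjusted p = 0.000823). The chaperones that bring iron to ferritin, Pcbp1 and Pcbp2, were at 0.29 (SE 0.16) and 0.13 (SE 0.15) and did not pass. The regulators held 2 higher genes among 12 tested and none lower, or 16.7% beside 21.2% of all genes tested. Neither count is a result about its group, and the genes are given for their own values. Hfe, which reports transferrin saturation, rose by 0.56 (SE 0.16, DESeq2 adjusted p = 0.00490), and Bach1, a heme-sensing repressor of Hmox1, rose by 0.37 (SE 0.14, DESeq2 adjusted p = 0.0338). Fbxl5, which marks an iron regulatory protein for decay, was at -0.03 (SE 0.15) and Epas1, a hypoxia factor, at 0.17 (SE 0.20).

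Of 17 mitochondrial genes, 2 were higher and 2 lower, or 23.5%, close to the 21.2% of all genes tested, so this count too is no result about the group. Iscu, the scaffold of iron-sulfur clusters, rose by 0.60 (SE 0.15, DESeq2 adjusted p = 0.000713) and Abcb10, a mitochondrial inner membrane transporter, by 0.48 (SE 0.14, DESeq2 adjusted p = 0.00623). The mitochondrial iron importer Slc25a37 was lower, at -0.50 (SE 0.17, DESeq2 adjusted p = 0.0208), as was Ppox, an enzyme of heme synthesis, at -0.48 (SE 0.14, DESeq2 adjusted p = 0.00554). Both genes serve heme synthesis, and the erythroid markers were lower in the same comparison, but their part in this was not tested. Fech, which inserts iron into heme, was at -0.14 (SE 0.12) and did not pass.

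**Figure D5:**
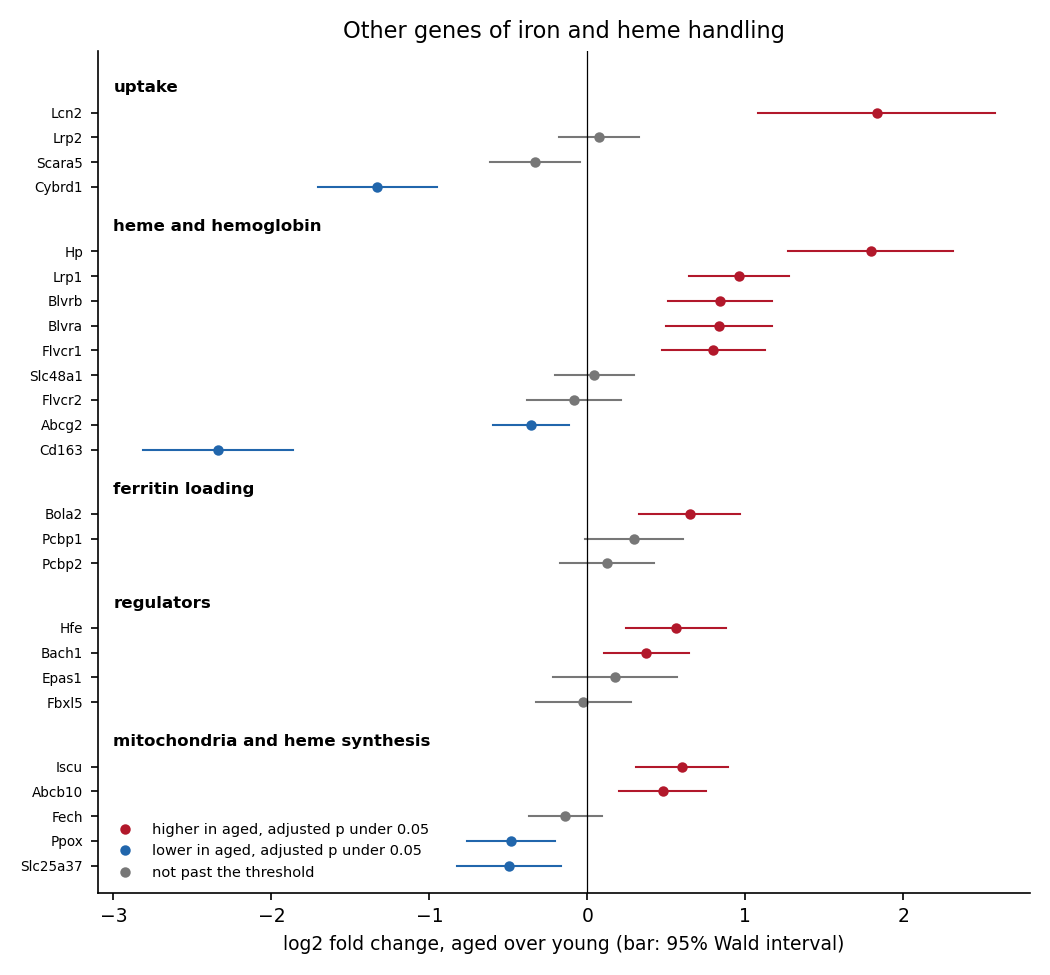
Log2 fold change (x axis, aged over young) with 95% Wald intervals for the genes of the wider iron and heme list that are named in the text (y axis, by group). The largest departures among them are Lcn2 at 1.83 and Hp at 1.79 on the right and Cd163 at -2.34 and Cybrd1 at -1.33 on the left.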

How the data were processed

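Total RNA of 6 RPE/choroid libraries, 3 young and 3 aged, was sequenced with a stranded kit. Per the methods and labels, the authors used BBDuk to trim reads and STAR to align them to GRCm38 transcripts from Ensembl, then estimated abundances (TPM) with Sailfish, turned them into normalized counts by total count and ran DESeq2. Versions of BBDuk, STAR and DESeq2 are not given in the sources used here. The processed file is the table of that comparison, so the main values are the authors' own estimates and no model was refitted. Only the alternatives recompute Wald p-values or their adjustment from those columns. It holds 0 columns that name a sample. The deposited baseMean is a normalized signal averaged over all libraries. Fold changes and their errors were deposited on the log2 scale, and the deposited Wald score is their ratio. The authors' p-value, raw and adjusted, was used for each gene. Wald p-values recomputed here differed from the deposited ones by at most 0.449%.

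The sign, read as young over aged, was reversed. Group means were solved from baseMean and fold change for groups of equal size. The largest deposited SE was 0.460, although many genes had a baseMean under 0.25, which an unshrunken fit to 3 libraries per group would not give. Fold changes were thus taken to be shrunken towards 0, although the sources do not state it, which draws group means together, most of all for low genes. Lengths, 31-base words and stem-loops came from GENCODE M21, with 1 principal transcript per gene for length. Of the wider and marker genes, 3 and 3 were matched through older symbols, and Hbb-bs, Hbb-bt and Ahsp were not matched. Scripts (Python 3.11.15, pandas 2.3.3, SciPy 1.17.1, matplotlib 3.10.9) were tested on simulated data.

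The genes named are the 10 members, every wider iron gene with an adjusted p under 0.05, in each of its groups the other tested genes with the 2 largest baseMeans, and the 2 of largest baseMean in each marker list, beside near-identical copies, the other fibroblast markers, a well-known stem-loop gene and genes without a test. Some genes that this rule names are not reported here. The members and lists were chosen with earlier results of these data known. Alternatives were other thresholds, filters and centrings. Titles number the mice within each group. The p-values weigh each fold change against its SE from the authors' DESeq2 fit to these libraries.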

Additional observations from a re-analysis of the deposited data

How the results depend on the processing

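Of the 10 genes, 9 differed between groups. That count was 6 at an adjusted p under 0.01, 9 at 0.1, 9 without a filter on low genes, 9 with adjustment over genes with a baseMean of at least 100, 9 when centred on all genes tested, and 7 when centred on genes with a baseMean of at least 100, a shift of 0.06. When a change of 1 or more on the log2 scale, in either direction, was also required, it was 4 for these genes and 4 in place of 16 for the wider iron genes. Over all genes, the count of 3949 became 2520 at 0.01 and 1542 with that minimum. None of the 10 genes changed direction in the alternatives run. Over all genes the split of 2100 higher and 1849 lower became 681 and 861 with that minimum and 1650 and 2289 on centring by genes with a baseMean of at least 100. The loss of Trf, Slc11a2, Slc40a1, Cp and Heph at the minimum of 1 follows from their size.

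No paired analysis was possible because values of single libraries were not analysed here. The replicate block and the fits that leave out each library in turn were not run either, and whether 1 library decides a value is not known. The number of reads per library is unknown here.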
